A study of Saccharomyces cerevisiae with 103 samples.

Results

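The 60S ribosome assembly factor genes encode the proteins that fold, cut and modify the RNA of the large ribosomal subunit in the nucleolus and bring the unfinished particle to the cytoplasm. They were chosen by name, as 43 systematic names among the 6692 genes of the deposited tables, and all 43 were present in the RNA, poly(A) tag and tail tables. The samples were budding yeast of strain SK1, which sporulates fast and in near synchrony, and 50 RNA-seq libraries and 50 poly(A) tag libraries were used, with 3 more RNA-seq libraries whose RNA was fragmented first. A poly(A) tag library reads mRNA 3' ends, and from it comes a mean tail length per gene, in nucleotides (nt).

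Making ribosomes takes a large share of the transcription of a growing yeast cell, and the assembly factor genes are known to be switched on and off together with nutrients, as part of the ribosome biogenesis regulon. Their promoters often carry PAC and RRPE, short elements to which the repressors Dot6 and Tod6 (PAC) and Stb3 (RRPE) bind, while Sfp1 is an activator of the regulon. In acetate medium without a nitrogen source for growth (sporulation medium, SPO), diploid cells stop dividing and go through meiosis, and in rich glucose medium (YPD) cells that are not yet committed to meiosis return to growth.

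Wild-type SK1 (WT) cells grown in the presporulation medium BYTA for 16 h and moved to SPO at 30 °C were sampled each hour from 0 to 9 h, with 2 libraries of each kind per hour. WT cells kept 1 h or 7 h in SPO were moved to YPD and sampled at 0, 5 and 20 min (2 RNA and 2 tag libraries at each time). WT cells and homozygous deletion strains of CCR4 (ccr4Δ/Δ), POP2 (pop2Δ/Δ) and XRN1 (xrn1Δ/Δ) were sampled in log phase in YPD (Veg), after BYTA (Pre) and after 5 h in SPO (Mei), and each strain and stage has 1 RNA and 1 tag library. Ccr4 and Pop2 are the tail-shortening enzymes of Ccr4-Not, and Xrn1 is the exonuclease that degrades mRNA from the 5' end in the cytoplasm. A strain with Xrn1 fused to a degron was sampled at 0 and 30 min after 500 µM auxin and 50 µM CuSO4, and a strain with CCR4 under the copper-inducible CUP1 promoter (pCup1-Ccr4) at 0 and 60 min after 50 µM CuSO4, each beside an untreated WT control and with 1 library of each kind. There is no treated WT library, so the agent and the change in Xrn1 or Ccr4 cannot be told apart. The labels do not say whether replicates were separate cultures, so p-values measure the spread between these libraries, which may be technical.

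By role, 9 members are DEAD-box RNA helicases, which remodel the folded precursor RNA: DBP3 (YGL078C), DBP6 (YNR038W), DBP7 (YKR024C), DBP9 (YLR276C), DBP10 (YDL031W), DRS1 (YLL008W), HAS1 (YMR290C), MAK5 (YBR142W) and SPB4 (YFL002C). The 3 assembly GTPases are NOG1 (YPL093W), NOG2 (YNR053C) and NUG1 (YER006W). NOP7 (YGR103W), ERB1 (YMR049C), YTM1 (YOR272W), RLP7 (YNL002C), NOP15 (YNL110C) and CIC1 (YHR052W) act at the spacer between the mature rRNAs. NSA1 (YGL111W), RPF1 (YHR088W), MAK16 (YAL025C) and RRP1 (YDR087C) form the Nsa1 module. MAK21 (YDR060W), NOC2 (YOR206W) and NOC3 (YLR002C) are the Noc proteins, which travel with early and middle particles. RPF2 (YKR081C) and RRS1 (YOR294W) bring in the 5S ribonucleoprotein, and BRX1 (YOL077C), EBP2 (YKL172W) and SSF1 (YHR066W) belong with them to an early group rich in Brix-domain proteins. NOP2 (YNL061W) and SPB1 (YCL054W) are methyltransferases of the rRNA. NOP4 (YPL043W), NOP12 (YOL041C), NOP16 (YER002W), LOC1 (YFR001W), PUF6 (YDR496C) and NIP7 (YPL211W) are other RNA-binding or nucleolar factors. RLP24 (YLR009W), NSA2 (YER126C), TIF6 (YPR016C), NMD3 (YHR170W) and ARX1 (YDR101C) act late, and among them Nmd3 and Arx1 are export factors and Tif6 keeps the new subunit from joining the small subunit too early.

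The genes lie on 14 chromosomes, 24 on the plus strand and 19 on the minus strand, in the R64 annotation, the assembly that sacCer3 stands for. The members' coding length ran from 546 to 3078 nt with a median of 1518 nt. Of the 43, 42 have 1 coding exon, and NOG2 has an intron that holds the small nucleolar RNA SNR191. SSF1 has a near-identical copy, SSF2, and its values are uncertain because the sources used here do not say how shared reads were counted.

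The promoters of the members, read from the R64 genome of RefSeq as the 250 bases before the start codon, were rich in the 2 elements. The PAC core GCGATGAG, searched on both strands, was in 28 of 43 promoters (65.1%) and in 3.83% of the promoters of 6004 protein-coding genes. The RRPE core AAAAATTT, also on both strands, was in 37 of 43 (86.0%) and in 13.4% of all promoters. Both cores were in 23 of 43 (53.5%) and in 2.22% of all, and the shorter PAC core GATGAG, which lies inside the longer one, was in 41 of 43 (95.3%) and in 17.0% of all. Among the genes of the small-subunit processome, the parallel machinery of the other subunit, 54.8% held PAC and 85.7% held RRPE, whereas among the RPL genes, which encode the proteins of the large subunit, 1.32% and 9.21% did. Between the end of the PAC core and the start codon lay 47 to 173 bases, with a median of 115, and in 20 of the 23 promoters with both cores RRPE lay farther from the start than PAC. A match is a description of the sequence and not a measured binding site.

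The first 4 promoters below hold both cores and belong to the members with both cores that had the highest log2 change 20 min after return to YPD from 1 h in SPO, and the last one, of NOC3, holds neither PAC GCGATGAG nor RRPE, but does hold the shorter GATGAG. They are written on the strand of the gene, 5' to 3', ending at the base before the start codon, with the PAC and RRPE cores in capitals. They cover chrXV:186724-186973 on the minus strand (BRX1), chrXVI:370728-370977 on the plus strand (NOG1), chrXV:832563-832812 on the plus strand (YTM1), chrVII:361860-362109 on the minus strand (DBP3) and chrXII:156335-156584 on the minus strand (NOC3). PAC reads CTCATCGC in these 4 because it lies on the opposite strand.
BRX1: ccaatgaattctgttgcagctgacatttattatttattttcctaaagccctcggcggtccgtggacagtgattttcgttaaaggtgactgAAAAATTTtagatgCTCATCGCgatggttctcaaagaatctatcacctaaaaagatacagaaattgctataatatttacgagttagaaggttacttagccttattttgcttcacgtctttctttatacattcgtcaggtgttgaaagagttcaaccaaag
NOG1: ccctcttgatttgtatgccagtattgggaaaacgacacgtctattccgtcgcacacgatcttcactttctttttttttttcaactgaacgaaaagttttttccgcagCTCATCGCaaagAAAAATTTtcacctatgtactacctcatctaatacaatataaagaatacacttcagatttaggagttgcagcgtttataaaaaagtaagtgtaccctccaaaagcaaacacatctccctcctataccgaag
YTM1: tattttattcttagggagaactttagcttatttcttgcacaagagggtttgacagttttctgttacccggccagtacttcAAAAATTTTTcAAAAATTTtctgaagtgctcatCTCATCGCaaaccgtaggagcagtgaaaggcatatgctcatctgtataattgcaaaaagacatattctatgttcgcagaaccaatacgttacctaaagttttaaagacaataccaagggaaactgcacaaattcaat
DBP3: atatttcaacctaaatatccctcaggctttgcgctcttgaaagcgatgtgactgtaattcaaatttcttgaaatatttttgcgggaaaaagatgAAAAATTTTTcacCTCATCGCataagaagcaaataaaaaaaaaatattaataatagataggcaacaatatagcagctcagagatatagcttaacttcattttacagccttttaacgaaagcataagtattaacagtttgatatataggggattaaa
NOC3: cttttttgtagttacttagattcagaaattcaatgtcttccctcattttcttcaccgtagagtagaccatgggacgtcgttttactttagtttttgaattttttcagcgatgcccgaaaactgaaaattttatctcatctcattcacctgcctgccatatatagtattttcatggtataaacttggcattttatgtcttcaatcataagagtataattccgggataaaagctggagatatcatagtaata

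In these 4 promoters 129 to 138 bases lie between the PAC core and the start codon, with RRPE close beside it: on the far side of PAC in BRX1, YTM1 and DBP3 and on the near side in NOG1. The members with both cores had a median log2 change of 7.14 at 20 min in YPD after 1 h in SPO (23 genes, 4.31 to 8.54), those with RRPE alone 6.40 (14 genes, 2.73 to 8.30) and those with PAC alone 5.03 (5 genes, 2.64 to 6.51). NOC3, with neither of these cores, had 6.09 which lay within the range of each of the other 3 classes. No test was made between the classes.

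The RNA libraries held 364038 to 3821895 counts (time course), 132594 to 4689131 (return to growth), 178152 to 1596718 (mutants), 1299404 to 4583279 (degron) and 1426300 to 2011448 (pCup1-Ccr4). The tag libraries of the time course held 71930 to 314734 tags, those of the return 452277 to 1357096 and the others 791068 to 8926553. The stages were checked by their marker genes. NDT80, the regulator of the middle meiotic genes, was at 50.9 and 30.5 CPM at 0 h and at 829 and 923 CPM at 5 h in the time course, and DIT1, a spore wall gene, reached 5138 and 3427 CPM at 7 h from 258 and 143 CPM at 6 h. CPM values here use the TMM-scaled library size. CCR4 had 0 or 1 counts in the 3 ccr4Δ/Δ libraries, POP2 had 0 in the 3 pop2Δ/Δ libraries and XRN1 had 1 or 2 in the 3 xrn1Δ/Δ libraries. The library of 7 h in SPO before transfer, replicate 2, was the shallowest with 132594 counts, and a fit without its partner leaves it alone in its group, as if it varied like the other libraries. In bulk RNA, fewer cells that express a gene and less RNA per cell cannot be told apart.

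In the first hour in SPO the RNA of the whole group fell. All 43 members were lower at 1 h than at 0 h (edgeR quasi-likelihood test, Benjamini-Hochberg adjusted p under 0.05), with a median log2 change of -3.37, while 29.3% of the 6269 genes tested were called lower and the median of all genes was 0.02. Together the members held 0.416% and 0.431% of the counts at 0 h and 0.0701% and 0.0632% at 1 h. The RPL genes, the main structural partners of these factors, had a median of -3.03 (74 of 76 lower), the small-subunit processome -3.31 (42 of 42 lower), 33 other large-subunit assembly genes -1.91 (31 lower) and 15 genes of RNA polymerase I -0.78 (8 lower, 2 higher).

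MAK16 (chrI:100225-101145), a scaffold of the Nsa1 module, had 81.9 and 95.1 CPM at 0 h and 1.5 and 0.548 CPM at 1 h. That rests on 3 counts at 1 h against 353 at 0 h, a ratio of 92.9 with a 95% interval of 31.5 to 452 for counting error only. NOP2 (chrXIV:510540-512396), which methylates the rRNA, had 128 and 149 CPM at 0 h and 1.5 and 4.93 CPM at 1 h, and its log2 change was -5.29 ± 0.28 (SE, adjusted p = 1.3e-11). The GTPase gene NOG2 followed with -5.22 ± 0.33, RLP24 with -5.00 ± 0.36 and NSA2 with -4.98 ± 0.40. In MAK16 and NOP2 both 1 h libraries lay far under both 0 h libraries. At the other end TIF6 (chrXVI:592332-593069) had 147 and 181 CPM at 0 h and 114 and 103 CPM at 1 h, a log2 change of -0.60 ± 0.15 (adjusted p = 0.0019). NOP4 (-0.94 ± 0.19) and LOC1 (-1.02 ± 0.14) had the next smallest decreases. NOG1 fell by 4.75 on the log2 scale, from 196 and 199 to 4.51 and 9.32 CPM. NOP7 changed by -4.11, RPF2 by -3.86, DBP3 by -3.82, and the export factor genes NMD3 and ARX1 by -3.08 and -2.73. ARX1 had 97.5 and 93.5 CPM at 0 h and 16.5 and 12.6 CPM at 1 h, and NMD3 127 and 131 and then 14.3 and 15.9.

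By role, the 3 GTPases had a median of -4.75, the 2 methyltransferases -4.50, the 5S and Brix group -3.86, the spacer factors -3.79, the late and export factors -3.08, the other RNA-binding factors -2.43, the helicases -2.42, the Noc proteins -2.36 and the Nsa1 module -2.26. Roles were not uniform: the Nsa1 module ran from -6.45 (MAK16) to -1.59 (NSA1).

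**Figure D1:**
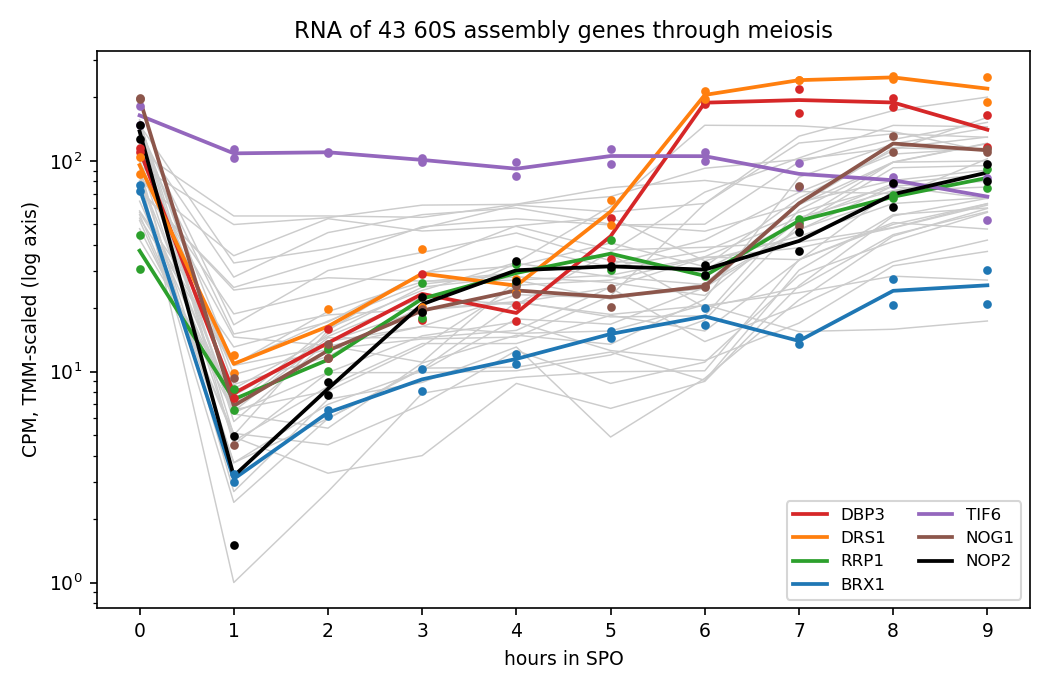
RNA level of the 43 genes in CPM (log axis) against hours in SPO, with 7 genes in colour (line, mean of 2 libraries; points, libraries) and the other 36 in grey. The group fell at 1 h and returned towards its 0 h level by 9 h, DBP3 and DRS1 passed that level at 6 h, and TIF6 went from 164 to 67.7 CPM.

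The group then came back while meiosis went on. Relative to 0 h the median of the members went from -3.37 at 1 h over -2.85, -2.30, -2.01, -1.93 and -1.61 at 2, 3, 4, 5 and 6 h to -1.04, -0.39 and -0.13 at 7, 8 and 9 h. Over the same hours the median of the RPL genes was -2.38 at 5 h and -1.39 at 9 h, where 65 of 76 RPL genes were still lower. At 5 h, 40 of 43 members were lower than at 0 h with a background of 37.6% of all genes. RLP24 had the largest decrease at 5 h (-4.0 ± 0.34), then NOG2 (-3.62 ± 0.29) and MAK16 (-3.15 ± 0.30). NOG1 (-3.07), NMD3 (-2.71), RPF2 (-2.62), NOP7 (-2.38), NOP2 (-2.13), ARX1 (-1.74), DBP3 (-1.47) and TIF6 (-0.67) also fell. The members that did not pass were NOP4 (-0.42), NOP12 (-0.20) and RRP1 (0.04). Between 1 h and 5 h 33 of 43 members rose, with a median of 1.61, where 28.1% of all genes rose. MAK16 (3.30), NOP12 (3.17) and NOP2 (3.15) rose the most, and NSA1, TIF6, SPB4, NMD3, NOP4, DBP6, RRS1, YTM1, RLP24 and NIP7 did not pass.

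By 9 h the members stood on both sides of their 0 h level. RRP1, DRS1, NOP16, RPF2, NOP12, DBP10 and SPB1 were higher (7 of 43, with 28.5% of all genes called higher) and 12 members were lower (34.1% of all genes), which is near or under the background in each direction. RRP1 had 30.5 and 44.4 CPM at 0 h and 74.5 and 91.7 CPM at 9 h (log2 change 1.19 ± 0.24, adjusted p = 0.00029). DRS1 changed by 1.17 ± 0.21 and NOP16 by 1.13 ± 0.19. BRX1, a Brix-domain factor, had 76.6 and 72.3 CPM at 0 h and 30.4 and 21.0 CPM at 9 h, a change of -1.60 ± 0.24. DBP6 (-1.53), SSF1 (-1.48), TIF6 (-1.36), HAS1 (-1.09), NOG1 (-0.81), NOG2 (-0.72), RLP7 (-0.67), RLP24 (-0.66), NOP2 (-0.62), NOP7 (-0.52) and LOC1 (-0.39) were the others that were lower. The 24 others did not pass, with values from -0.49 (MAK16) to 0.37 (DBP3). Among the role representatives, ARX1 (-0.13) and NMD3 (-0.13) were in that group. The 9 h libraries were shallow, at 364038 and 693399 counts. Without 9 h replicate 1, 7 members were lower, and without 9 h replicate 2, 3 were higher.

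Against the low point at 1 h, 41 of 43 members were higher at 9 h, with a median log2 change of 3.45, where 30.8% of all genes were higher. MAK16 (5.96), NUG1 (4.88) and NOP2 (4.67) were highest and the smallest changes that passed upward were LOC1 (0.64) and SPB4 (0.84). TIF6 was lower at 9 h than at 1 h (-0.76 ± 0.21), where 31.5% of all genes were lower, but not without 9 h replicate 2, and DBP6 did not pass (0.81). Over the whole course 43 of 43 members differed among hours at adjusted p of at most 6.1e-05, as did 94.5% of all genes.

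The members did not return at the same time. The hour from which the mean stayed at 0.5 of its 0 h level or more was 1 h for NOP4, 3 h for RPF1, RRP1 and NOP16, 4 h for LOC1, 5 h for DRS1 and NOP12 and 6 h for DBP3, MAK5, CIC1 and SPB1. It was 7 h for 9 members (DBP9, DBP10, SPB4, ERB1, NSA1, RPF2, EBP2, NIP7 and ARX1), 8 h for 16 and 9 h for NOP7 and RLP24. BRX1, SSF1, HAS1 and DBP6 did not stay there by 9 h. TIF6 did not either, but it was above 0.5 of its 0 h mean (164.4 CPM) from 1 h to 7 h. It was under that level only at 8 h and 9 h (81.0 and 67.7 CPM). NOP4 was above 0.5 at each hour, so it had no return to make. Some members, DBP9, SPB4 and NOC3 among them, were above 0.5 at 4 h and under it again at 6 h. The lowest hour was 1 h for 36 of 43 members and the highest hour after 0 h was 9 h for 31.

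The helicase genes DBP3 and DRS1 and the gene NOP12 went up by a step between 5 h and 6 h, a change that was not tested. CIC1 (mean 22.9 to 62.7 CPM) and SPB1 (36.9 to 71.1) also rose between these hours, but stayed under their 0 h means (116.4 and 109.4). The DBP3 libraries had 115 and 110.0 CPM at 0 h, 7.51 and 8.22 at 1 h, 34.1 and 53.6 at 5 h, and 187 and 191 at 6 h. DRS1 went from 49.7 and 65.2 CPM at 5 h to 214 and 197 at 6 h, and NOP12 from 59.6 and 62.3 to 146 and 149. With library sizes alone the step of DBP3 was from a mean of 48.7 to 147.3 CPM, that of DRS1 from 64.0 to 160.2 and that of NOP12 from 68.1 to 115.1. The 6 h libraries of DBP3, DRS1 and NOP12 lay above their 0 h libraries, at the hour when NDT80 was highest (1608 and 1687 CPM). The genes next to them did not share the step: beside DBP3, KXD1 went from 36.6 to 25.7 and HNM1 from 167.7 to 103.9 CPM (means, library-size scaled) between 5 h and 6 h, and beside DRS1, COX17 went from 8.2 to 5.9 and LMO1 from 23.3 to 9.6. NOG1 (chrXVI:370978-372921), a GTPase gene, stayed at 25.1 and 25.6 CPM at 6 h and reached 131 and 111 at 8 h, against 196 and 199 at 0 h. RPF2, which brings in the 5S particle, went from 25.1 and 19.1 CPM at 6 h to 87.6 and 79.8 at 7 h.

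Of the regulators, TOD6 moved with the members in the first hour: it had 99.9 and 116 CPM at 0 h and 14.3 and 11 CPM at 1 h. STB3 had 99.4 and 115 CPM at 0 h, 117 and 134 at 1 h and 221 and 201 at 6 h. DOT6 went from 481 and 445 to 346 and 364 CPM in the first hour. SFP1 was at 57.2 and 68.7 CPM at 0 h and 43.6 and 53.2 at 1 h, and at 85.6 and 83.8 at 7 h. These are RNA levels, and what these proteins did was not measured.

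When cells were returned to YPD after 1 h in SPO, each member rose within 5 min. All 43 were higher at 5 min than before transfer (median log2 change 5.55) and all 43 at 20 min (median 6.58) (edgeR quasi-likelihood test, adjusted p under 0.05). Of the 6109 genes tested, 27.4% were higher at 5 min and 38.4% at 20 min, with medians of -0.43 and -0.10. The members held 0.0665% and 0.0621% of all counts before transfer, 1.84% and 1.92% at 5 min and 2.44% and 2.34% at 20 min. In the tag counts, which were not tested, all 43 were also above 0 at both times, with a smaller median of 3.17 at 5 min and 5.45 at 20 min.

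NOG1 had 5.72 and 1.71 CPM before transfer, 841 and 771 at 5 min and 1550.1 and 1499.6 at 20 min, a log2 change of 7.59 ± 0.27 at 5 min and 8.51 ± 0.27 at 20 min (adjusted p = 8.2e-28). MAK16 had 2.86 and 0.855 CPM before transfer and 607 and 576 at 5 min (8.11 ± 0.31), and NOG2 rose by 7.46 ± 0.26. BRX1, which had 1.71 and 2.56 CPM, reached 235 and 209.6 at 5 min and 794 and 806 at 20 min (8.54 ± 0.30), and YTM1 rose by 8.40 ± 0.31 at 20 min. Their levels before transfer rest on few counts, so the size of these changes is less certain than their direction. The methyltransferase gene NOP2 went from 4.57 and 5.98 CPM to 1102 and 1068 at 20 min, and NOP7 from 8.0 and 5.13 to 1679 and 1502, the highest level of a member in both 20 min libraries. RPF2 rose by 7.22, ARX1 by 6.58 and NMD3 by 6.12, from 12 and 9.40 CPM to 786 and 751 in the case of NMD3. The smallest responses after transfer were those of LOC1 (1.19 at 5 min and 2.64 at 20 min), TIF6 (1.89 and 2.73) and SPB4 (1.97 and 2.85). TIF6 had 113 and 112 CPM before transfer and 724 and 761 at 20 min.

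**Figure D2:**
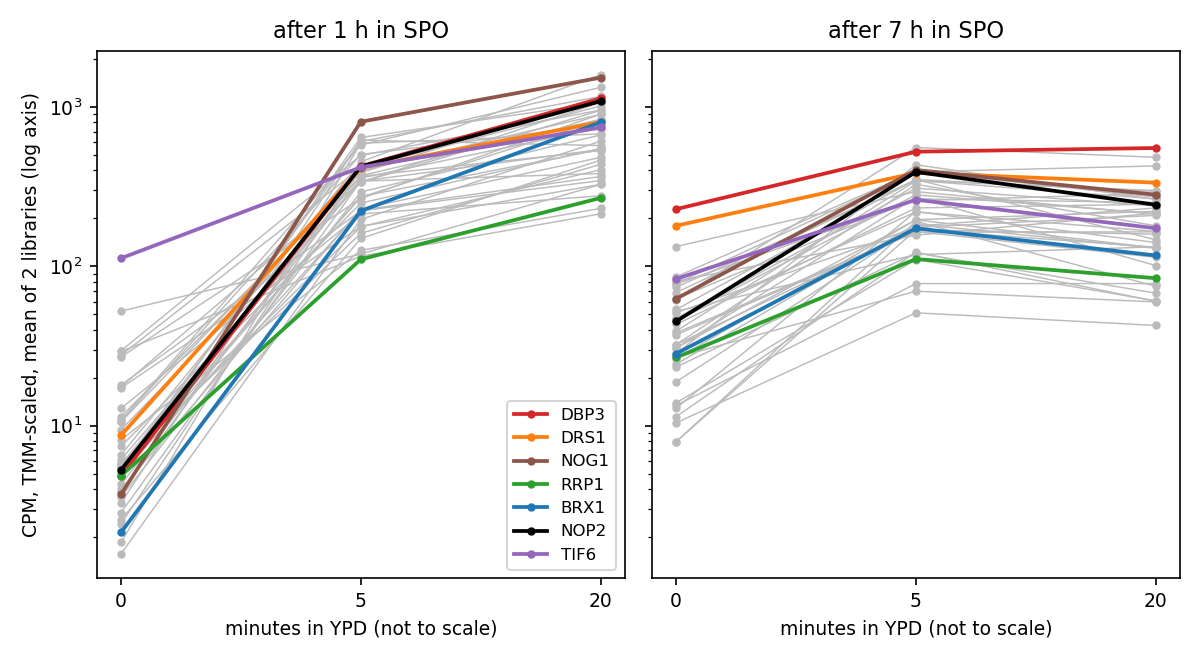
RNA level of the 43 genes in CPM (mean of 2 libraries, log axis) at 0, 5 and 20 min in YPD after 1 h (left) and 7 h (right) in SPO, with 7 genes in colour. After 1 h the levels went on rising from 5 to 20 min for 40 members. After 7 h, 37 members started higher than after 1 h and TIF6 started lower, and 19 members fell from 5 to 20 min.

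From 5 to 20 min, a comparison added after the counts were seen, 40 of 43 members rose further (median 1.07), where 41.1% of all genes rose. BRX1 (1.85), NOP7 (1.81) and DBP10 (1.76) rose the most, and NOG2 (-0.11), SSF1 (0.16) and MAK16 (0.19) did not pass. With library sizes alone in place of TMM, the members' changes shift by -0.74, and 21 members rose and 3 fell. The RPL genes had a median of 2.41 between the same times, with 76 of 76 higher.

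After 7 h in SPO the response to YPD was smaller. All 43 members were higher at 5 min, with a median of 2.54 on the log2 scale where 26.2% of all genes were higher, and all 43 at 20 min, with a median of 2.00 where 17.9% were higher. In the tag counts the medians were 2.71 with 43 above 0 at 5 min and 1.36 with 39 above 0 at 20 min. At 5 min NOP7 (3.79), YTM1 (3.76) and RLP24 (3.62) rose the most and NOP16 (1.06), LOC1 (1.12) and DRS1 (1.12) the least. At 20 min RLP24 (3.49), HAS1 (3.16) and MAK16 (3.07) were highest and NOP12 (0.80), SPB4 (0.90) and DRS1 (0.91) lowest. NOG1 had 45.6 and 79.5 CPM before transfer, 394 and 409.8 at 5 min and 260.5 and 302 at 20 min, so the 20 min libraries lay between the others. DBP3 had 194 and 262 CPM before transfer, 476 and 570.2 at 5 min and 505 and 599 at 20 min. NOP7 had 32.7 and 23.8, then 375 and 491, then 223 and 302 CPM, and ARX1 37.7 and 23.8, then 297 and 246, then 96.0 and 106.

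From 5 to 20 min after 7 h, added after the counts were seen, 19 of 43 members fell, where 14.7% of all genes fell: ARX1 (-1.44), YTM1 (-1.36) and NUG1 (-1.30) fell the most. The others that fell were NOC3, RRS1, RLP7, NOP7, NIP7, NOP2, BRX1, PUF6, NSA2, NSA1, TIF6, DBP9, DBP10, NOG1, NOP15 and NOP12. The count was 6 without the 20 min replicate 1 and 9 without the 5 min replicate 2. SPS4, a middle meiotic gene, had 39536 and 36541 CPM before transfer, 23545 and 25776 at 5 min and 36671 and 38343 at 20 min. Of the 5 middle genes checked, 4 were lower at 20 min than before transfer, with a median log2 change of -0.76. NDT80, for example, went from 1126 and 1192 CPM to 706 and 652. All 6 early genes checked were lower too, as were 685 of the 6109 genes tested.

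The difference between the 2 responses was tested as an interaction in the same model. At 20 min all 43 members had a smaller response after 7 h than after 1 h, with a median difference of -4.49 on the log2 scale, where 28.4% of all genes had a lower response. DBP3 (-6.48 ± 0.35), BRX1 (-6.08 ± 0.65) and NOG1 (-6.06 ± 0.44) differed the most and LOC1 (-1.42 ± 0.30), TIF6 (-1.54 ± 0.28) and SPB4 (-1.95 ± 0.39) the least. The other representatives were RPF2 (-5.34), ARX1 (-5.10), NOP2 (-5.04), NOP7 (-4.83) and NMD3 (-3.52). At 5 min 39 of 43 had a smaller response (median -2.78), where 15.7% of all genes did. The tag counts of the same conditions, which were not tested, had a median difference of -4.04 at 20 min, with 43 of 43 below 0, but of only -0.35 at 5 min, with 27 below 0 and 16 above, so the 2 kinds of library differed at 5 min. In the RNA test at 5 min MAK16 (-5.35), DBP3 (-5.12) and NOG2 (-4.76) led, and RLP7 (-0.86), SPB4 (-0.70), TIF6 (-0.09) and LOC1 (-0.07) did not pass. Without the 7 h replicate 1 before transfer, which leaves only the library of 132594 counts, 33 members passed at 20 min and 23 at 5 min. YTM1, PUF6 and RLP24 had 0 counts in that library, and their difference changed sign without its partner, with no call.

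**Figure D3:**
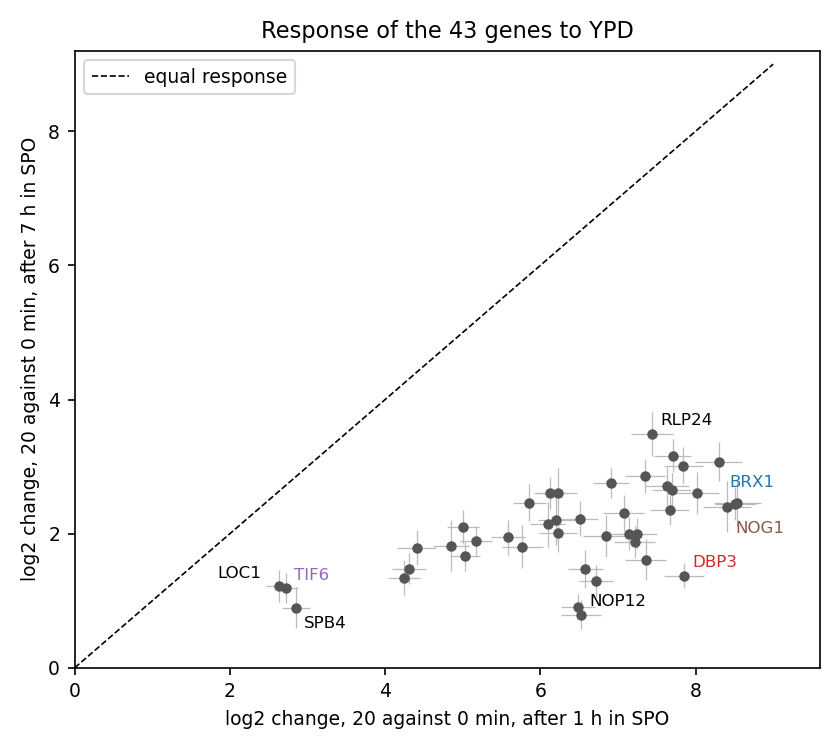
Log2 change at 20 min in YPD for each of the 43 genes after 1 h in SPO (horizontal) and after 7 h (vertical), with standard errors as bars. All 43 points lie under the dashed line of equal response, from LOC1, TIF6 and SPB4 on the left to NOG1 and BRX1 on the right.

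The start and the end both differed. Before transfer 37 members were higher at 7 h than at 1 h (29.2% of all genes) and TIF6 was lower (32.8% of all genes), with a median of 2.43. DBP3 (5.43), NOP12 (4.38) and DRS1 (4.31) were highest, and SPB4 (-0.02), LOC1 (0.08), DBP6 (0.63), RRS1 (1.08) and DBP7 (1.24) did not pass. Without the 7 h replicate 1, 24 were higher. The TIF6 call was lost without that library, without the 1 h replicate 1 and with DESeq2. At 20 min in YPD the members' median level was 708 and 749 CPM after 1 h and 177 and 193 CPM after 7 h, and these libraries did not overlap. Across the 43 members, the log2 ratio of 7 h to 1 h in the time course and in the return experiment had a Pearson correlation of 0.89 (Spearman 0.86), and the rise at 20 min after 1 h and the earlier fall from 0 h to 1 h a Pearson correlation of 0.87 (Spearman 0.86), given as descriptions over genes that share libraries and depth.

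The regulators also moved in YPD. TOD6 rose with the members after 1 h, from 14.9 and 14.5 CPM to 282 and 211 at 5 min and 495 and 505 at 20 min, and after 7 h it went from 16.9 and 39.7 to 148 and 169.6 and then 85.3 and 66.2. STB3 went the other way after 1 h, from 123 and 114 CPM to 40.1 and 27.2 at 5 min and 26.0 and 32.3 at 20 min. After 7 h STB3 went from 153 and 143 CPM to 69.5 and 77.9 and then 104 and 71.5. SFP1 went from 43.4 and 53.0 CPM to 145 and 130.3 at 5 min after 1 h, and from 45.6 and 47.7 to 119 and 99.9 after 7 h. DOT6 went from 348 and 366 to 164 and 136 CPM at 20 min after 1 h.

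After return from 1 h in SPO the members' poly(A) tails were long at 5 min and shorter at 20 min. Tail means are the authors' deposited values, and only those that rest on 20 tags or more were used, so few members could be measured before transfer: 4 and 2 members in the 2 libraries of 1 h at 0 min, 35 and 37 at 5 min and 42 and 41 at 20 min. Over these, the median tail was 44.7 and 41.4 nt at 5 min and 33.5 and 29.3 nt at 20 min, beside medians over a fixed set of 1229 genes of 26.8 and 24.6 nt and of 29.6 and 27.3 nt. NOG1 and TIF6 were the only members that could be tested against 0 min. NOG1 had tails of 27.6 and 18.3 nt before transfer, 57.8 and 54.7 nt at 5 min and 28.2 and 25.4 nt at 20 min. TIF6 had 30.9 and 30.3 nt, then 44.6 and 39.9 nt, then 40.5 and 39.4 nt. At 5 min both were longer than before transfer (limma, NOG1 33.3 ± 2.6 nt, adjusted p = 6.8e-08, and TIF6 11.6 ± 1.9 nt, adjusted p = 1.8e-04), where 10.9% of the genes tested were longer. At 20 min TIF6 was still longer (9.33 nt), where 20.3% of genes were, and NOG1 did not pass (3.89 nt).

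From 5 to 20 min after return from 1 h, 34 members could be tested in a comparison added after the tag counts were seen. 17 of the 34 had shorter tails at 20 min and none had longer ones, with a median of -11.7 nt, where 14.5% of all genes tested were shorter and the median of all genes was 0.41 nt. NOG1 (-29.5 ± 2.7 nt, adjusted p = 8.8e-06), NUG1 (-20.3 ± 2.9 nt) and YTM1 (-18.9 ± 4.7 nt) shortened the most. The other members that shortened were EBP2, NSA2, BRX1, NIP7, NOC3, NOP7, RPF2, RLP24, NOP4, RRS1, MAK16, HAS1, NOP12 and DBP3, by 11.8 to 18.1 nt. Each of the 17 that did not pass also had a value below 0, from -11.6 nt (NOC2) to NMD3 (-2.41), TIF6 (-2.30) and CIC1 (-1.0). CIC1, at -1.0, had tails of 25.9 and 32.8 nt at 5 min, below the members' medians in both libraries. The RPL genes had a median of -13.1 nt (58 of 76 shorter) and the small-subunit processome -6.03 nt (5 of 24). Leaving out 1 library gave 4 to 13 calls in place of 17, the lowest without 20 min replicate 2.

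**Figure D4:**
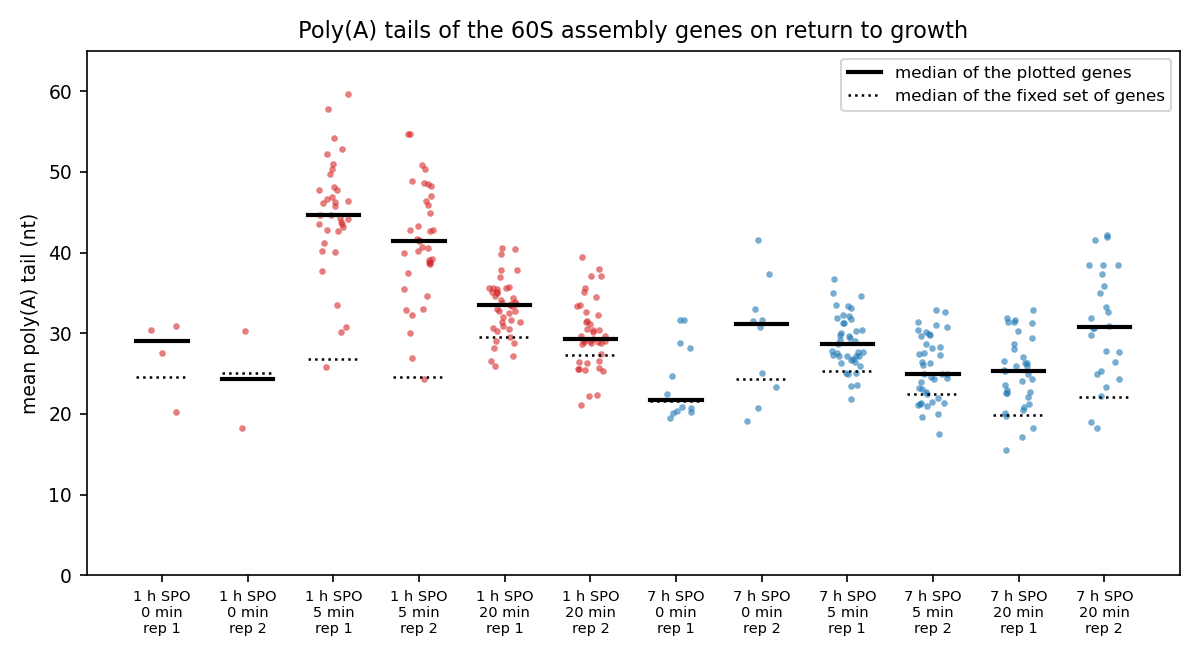
Mean poly(A) tail in nt of each member with at least 20 tags, by library, after 1 h (red) and 7 h (blue) in SPO. The solid line is the median of the members (44.7 and 41.4 nt at 5 min after 1 h) and the dotted line the median of a fixed set of 1229 genes.

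After 7 h in SPO the members' tails at 5 min lay closer to those of other genes than after 1 h. The members' median at 5 min was 28.7 and 25.0 nt (41 and 40 members), beside 25.3 and 22.4 nt over the 1229 genes, and at 20 min 25.4 and 30.8 nt (35 and 26 members) beside 19.9 and 22.1 nt. Against 0 min, limma called 0 of 9 members at 5 min (1 at an unadjusted p under 0.05) and 0 of 9 at 20 min (3), and from 5 to 20 min 0 of 26 (1). Over all genes the same fits called 0, 11 and 4 genes. In comparisons added after the tag counts were seen, 22 of 34 members had shorter tails at 5 min after 7 h than after 1 h, with a median of -15.9 nt, where 20.0% of all genes were shorter and the median of all genes was -2.82 nt. NOG1 (-33.8 ± 2.6 nt, adjusted p = 1.0e-06), NUG1 (-24.5 ± 2.8 nt) and BRX1 (-23.8 ± 4.1 nt) differed the most, and LOC1 (-2.79), CIC1 (-5.1) and DBP9 (-6.1) the least. Leaving out 1 library gave 13 to 25 calls, the lowest without the 7 h 5 min replicate 2. By 20 min 4 of 26 members were shorter after 7 h (DBP6, SSF1, DBP9 and TIF6), where 45.5% of all genes were, and NOG1 was longer (7.64 ± 2.7 nt), where 1.58% were. With each library centred on its median, 5 members were longer and none was shorter at 20 min. Without the 1 h 20 min replicate 1 neither DBP6, SSF1, DBP9, TIF6 nor NOG1 passed, and the NOG1 call was also lost without the 7 h replicate 2 or the 1 h replicate 2 of that time, while 1 or 2 members were shorter without the 7 h replicate 1 or the 1 h replicate 2.

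In the time course the tag libraries were too shallow for most members: 1 to 9 members per library reached 20 tags. TIF6 could be tested at 1 h (5.4 ± 2.9 nt against 0 h) and NOG1 and TIF6 at 5 h (1.1 and 7.5 nt), and limma called 0 of 1 at 1 h (0 at an unadjusted p under 0.05) and 0 of 2 at 5 h (1). Over all genes the same fits called 57 of 530 longer at 1 h and 53 of 559 at 5 h, and the other members could not be measured at this depth.

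In the stage series, with 1 library a group and no test, the WT members were lowest in Mei. Differences are given as log2 ratios with a prior count of 2, for genes whose mean reached 10 counts, and past means a log2 difference of at least 1 or a tail difference of at least 10 nt. From Veg to Pre the median of the members was -0.79 beside -0.36 over all genes, and HAS1 (-1.39) and LOC1 (0.43) were the ends. Past in the lower direction were 11 of 43 members (25.6%) beside 31.1% of all genes, a share under the background. The members held 1.04% of the counts in Veg and 1.02% in Pre. With library sizes alone their median was -0.09. From Veg to Mei it was -3.55, with 43 of 43 past beside 34.6% of all genes, and from Pre to Mei -2.68, with 40 of 43 past beside 28.2%. MAK16 had 421 CPM in Veg, 243 in Pre and 5.73 in Mei, and NOP7 had 756, 342 and 17.2. LOC1 had 220, 298 and 89.7 CPM and DBP3 500.0, 276 and 137. DBP3, NOP12 and RRP1 were the 3 members not past 1 from Pre to Mei.

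The 3 RNA-seq libraries that were fragmented before ligation allow levels to be compared between genes, as RPKM over the coding length. In WT Veg the members ran from 25.0 (RPF1) to 277.6 (NOG1) RPKM with a median of 99.3, and all 43 lay above the median of all genes (23.9). NOG1, TIF6 (276.6), BRX1 (228.4) and ARX1 (205.3) were highest, and RPF1, SPB4 (32.2) and DBP7 (44.4) lowest. In WT Mei the members' median was 14.4 and 2 of 43 lay above the median of all genes (39.1), with TIF6 highest at 120.5 and RPF2 lowest at 1.13, on 1 count. The log2 difference from Veg to Mei had a median of -2.73, and 42 of the 42 members measured were below 0, beside a median of 0.53 over all genes. In xrn1Δ/Δ Veg the members ran from 49.6 to 440.1 with a median of 145.9, beside 57.1 over all genes. Their log2 difference from WT Veg was 0.41 in the median beside 0.89 over all genes. The log2 differences of these 3 libraries used library sizes alone. In the main libraries, with TMM, the members' median in xrn1Δ/Δ Veg against WT was -0.505, beside 0.001 over all genes. With library sizes alone it was above 0 there too, so the sign depended on the scaling. In both kinds of library the members' median lay under that of all genes.

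In the mutants the members' medians moved by more than 1 in ccr4Δ/Δ and pop2Δ/Δ Pre and in xrn1Δ/Δ Mei. In Veg the median difference from WT was -0.48 in ccr4Δ/Δ, -0.74 in pop2Δ/Δ and -0.51 in xrn1Δ/Δ (0.14 with library sizes alone). Past 1 in the lower direction were 0, 6 and 4 of 43 members (0%, 14% and 9.3%), beside 2.31%, 7.43% and 7.95% of all genes. The xrn1Δ/Δ share was thus near the background. In Pre the median difference from WT was -1.77 in ccr4Δ/Δ, with 39 of 43 past lower beside 15.8% of all genes, and -1.78 in pop2Δ/Δ, also with 39 of 43, beside 14.6%. Both differences rest on the same WT Pre library, of 257493 counts. The members held 1.02% of its counts, 0.287% in ccr4Δ/Δ Pre and 0.288% in pop2Δ/Δ Pre. In the time course, WT libraries at 0 h, also after BYTA, held 0.416% and 0.431%. The reason for this difference between WT libraries was not tested. MAK16 had 243 CPM in WT Pre, 28.5 in ccr4Δ/Δ and 20.1 in pop2Δ/Δ, NOG2 had 280, 25.0 and 26.8, and SSF1 had 158, 12.5 and 16.7. TIF6 had 209.8, 226 and 172 CPM and MAK21 353, 319 and 219, and these 2 had the smallest decreases or none. The small-subunit processome had medians of -1.84 and -1.81 in the same comparisons, and the RPL genes 0.04 and 0.06. In xrn1Δ/Δ Pre the members' median was -0.04, with RRS1 at -1.11 and SPB1 at 1.15. At this stage the summed level of 6 early meiotic genes (in WT mostly IME1) was 3110 CPM in WT, 572 in ccr4Δ/Δ, 450 in pop2Δ/Δ and 116 in xrn1Δ/Δ. Its part in the members' difference was not tested.

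**Figure D5:**
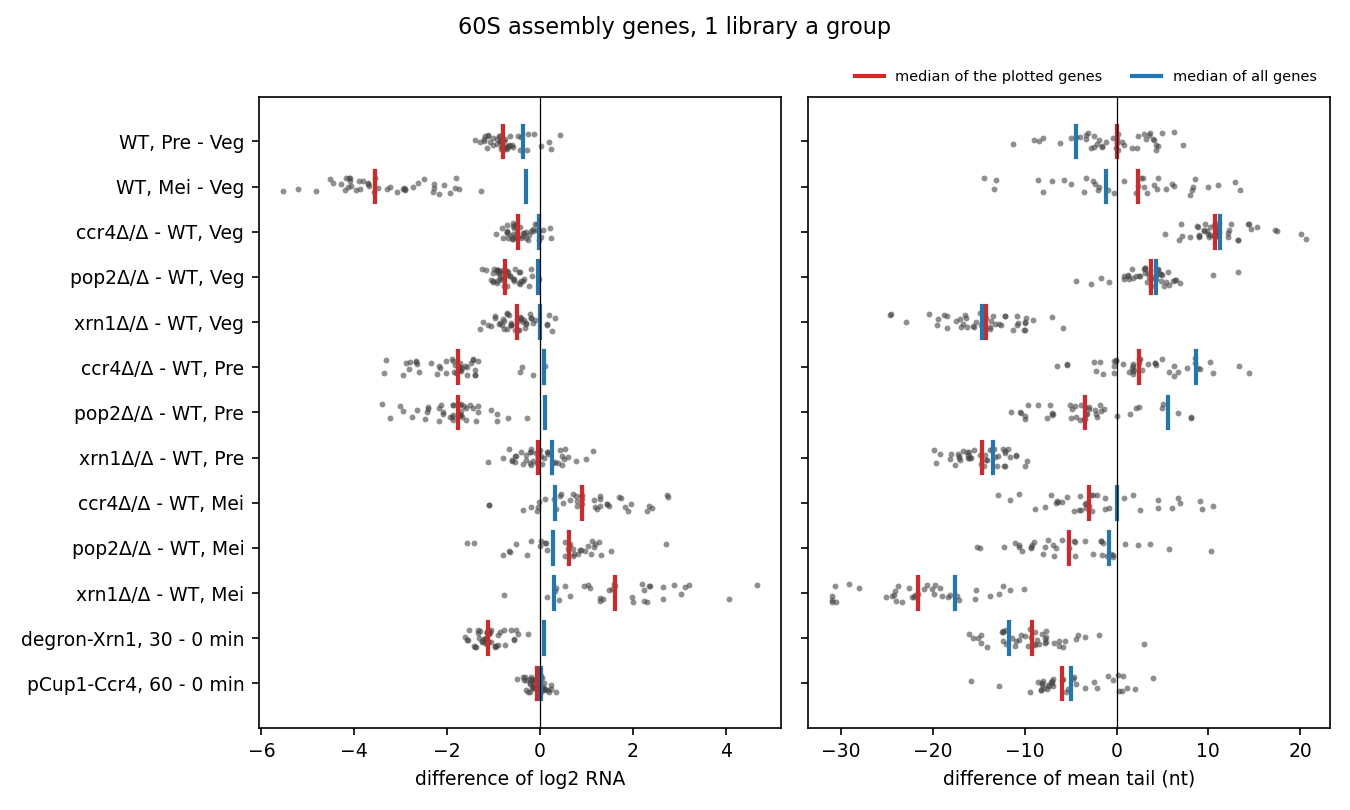
Difference of log2 RNA (left) and of mean tail in nt (right) for each member between 2 single libraries, with the median of the members in red and of all genes in blue. The RNA of all members lay below 0 in WT Mei against Veg and in pop2Δ/Δ Pre and that of all but TIF6 in ccr4Δ/Δ Pre, and their tails lay near the median of all genes in the Veg comparisons.

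In Mei the medians were above 0, as were those of all genes (0.32 in ccr4Δ/Δ, 0.28 in pop2Δ/Δ and 0.31 in xrn1Δ/Δ). The members' median difference from WT was 0.90 in ccr4Δ/Δ (19 of 41 past higher, beside 29.7% of all genes), 0.63 in pop2Δ/Δ (9 of 34, beside 27.3%, a share at the background) and 1.60 in xrn1Δ/Δ (25 of 33, beside 27.9%). The count minimum can admit a gene through the mutant library alone, and with no minimum and all 43 members the counts past higher were 19, 14 and 29 and the medians 0.89, 0.65 and 1.49, beside 28.8%, 27.1% and 31% of all genes with a count. NOP7 had 17.2 CPM in WT Mei, 134 in ccr4Δ/Δ, 43.2 in pop2Δ/Δ and 519 in xrn1Δ/Δ, and NOP2 had 17.2, 100.4, 37.1 and 103. EBP2 had 49.6 CPM in WT and 883 in xrn1Δ/Δ. DBP3 had 137 CPM in WT, 62.5 in ccr4Δ/Δ and 49.4 in pop2Δ/Δ, against the direction of the group, and 182 in xrn1Δ/Δ. DRS1 had 118 CPM in WT and 53.5 in ccr4Δ/Δ. The middle meiotic genes were low in the mutants: NDT80 had 1240 CPM in WT Mei, 8.93 in ccr4Δ/Δ, 6.18 in pop2Δ/Δ and 37.4 in xrn1Δ/Δ, and the sum of 5 middle genes was 22100 CPM in WT and 66.9, 71.1 and 84.1 in the mutants. The mutants were thus not at the WT stage at 5 h, and the stage and the missing gene cannot be told apart in Mei.

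In Veg the members' tails shifted by about as much as those of all genes in the 3 mutants. The members' median tail was 37.6 nt in WT Veg (37.8 nt over all genes), 37.5 nt in Pre (33.3 nt) and 39.9 nt in Mei (36.7 nt). In ccr4Δ/Δ Veg they were longer by a median of 10.7 nt, with 28 of 42 past 10 nt beside 65.1% of all genes, and in pop2Δ/Δ by 3.77 nt, with 2 of 43 past beside 9.98%. TIF6 had 37.9 nt in WT, 58.0 in ccr4Δ/Δ and 51.1 in pop2Δ/Δ, and DBP7 39.2 nt in WT and 59.9 nt in ccr4Δ/Δ. In xrn1Δ/Δ Veg the median difference was -14.2 nt, with 37 of 43 past beside 75.5% of all genes, while the RPL genes had a median of -0.37 nt. NOG2 (56.1 to 31.5 nt), RPF1 (44.7 to 20.0 nt) and SSF1 (44.7 to 21.7 nt) had the largest decreases. NOP2 had a listed tail of 14.9 nt in WT Veg on 26 tags, beside 4193 tags for NOG1, and its tails are uncertain.

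In Pre the members' tails were longer by a median of 2.41 nt in ccr4Δ/Δ, with 4 of 42 past beside 41.7% of all genes and a median of 8.71 nt over all genes. In pop2Δ/Δ Pre the median was -3.44 nt beside 5.66 nt over all genes. The RPL genes had -11.7 nt (73 of 76 below 0) and the 32 other large-subunit assembly genes measured -1.46 nt, on the same side of 0 as the members. The small-subunit processome (0.26 nt) and the RNA polymerase I genes (0.63 nt) lay on the other side. Among the members TIF6 was an exception with 36.3 nt in WT, 49.5 in ccr4Δ/Δ and 44.4 in pop2Δ/Δ. In Mei the members' medians were -2.95 nt in ccr4Δ/Δ and -5.23 nt in pop2Δ/Δ, beside 0.03 and -0.78 nt over all genes. The RPL genes had -1.05 and -5.46 nt, so in pop2Δ/Δ they stood close to the members. In xrn1Δ/Δ the median was -14.6 nt in Pre, with 41 of 42 past shorter beside 74.0% of all genes, and -21.6 nt in Mei, with 37 of 37 beside 90.9%. DBP3 had 44.7 nt in WT Mei and 13.7 nt in xrn1Δ/Δ, and ERB1 43.1 and 12.1 nt.

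In the degron-Xrn1 strain the members' RNA was lower 30 min after auxin and copper. Their tails were shorter, but by less in the median than those of all genes. The median log2 difference was -1.13, with 29 of 43 past lower beside 4.23% of all genes, and all 43 below 0. RPF2 had 338 CPM at 0 min and 109.9 at 30 min, ERB1 296 and 98.8, NUG1 430 and 147, and TIF6, the least changed, 313 and 260.0. The median tail difference was -9.19 nt beside -11.7 nt over all genes, with 17 of 42 past shorter (40.5%) beside 61.0% of all genes. NOG1 had 41.1 nt at 0 min and 39.3 nt at 30 min, MAK5 41.2 and 25.1 nt and DBP7 33.2 and 36.3 nt, the only member with a longer tail. At 0 min the degron strain itself stood 0.60 above the WT control in the members' median (42 of 43 above 0). Over all genes 2650 of 5328 were above 0, with a median of -0.003. The small-subunit processome (0.52) and the other large-subunit assembly genes (0.58) stood close to the members. XRN1 had 163 counts at 0 min and 648 at 30 min in libraries of different depth, and since the degron acts on the protein, RNA is no check of it.

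With CCR4 induced, no member passed a log2 difference of 1. CCR4 had 185 counts at 0 min and 882 at 60 min. The members' median log2 difference was -0.07 (0.43 with library sizes alone), and NOG2 (-0.49) and SPB4 (0.34) were the ends. Their tails had a median difference of -5.92 nt, with 2 of 37 past shorter (DBP6, 36.7 to 20.8 nt, and RPF1, 36.6 to 23.8 nt) beside 6.33% of all genes and a median of -4.9 nt over all genes. TIF6 had 32.2 nt at 0 min and 24.1 nt at 60 min, and NMD3 31.8 and 23.7 nt.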

How the data were processed

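Raw counts per gene, poly(A) tag counts and mean tail lengths (nt) were used as the authors deposited them. The submitters' processing notes name STAR 2.5.3a, bedtools 2.26.0, edgeR and sacCer3, while for the counting rule and the tail formula the sources used here give nothing. Per the labels' protocols, the main RNA libraries had the 3' adapter ligated before ribosomal depletion and fragmentation, so levels are compared between genes only in the 3 libraries fragmented first. RNA counts were tested with edgeR 4.0.16 (quasi-likelihood, TMM, filterByExpr, 1 model of group means per experiment), and tails with limma 3.58.1 over genes with at least 20 tags in each library compared, both with Benjamini-Hochberg adjustment over all genes and a threshold of 0.05. A sentence that prints an adjusted p uses these fits. Alternatives used DESeq2 1.42.0, other scalings, filters and tag minimums, and each replicate left out. Single libraries have a prior count of 2 and no test. The fits were tested on simulated data.

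The 43 members, the other gene lists and the motifs were chosen with earlier results of these data known. Named are the 3 members with the largest and the 3 with the smallest change in each tested comparison, those that did not pass or moved against the majority, and NOP2, NOG1, DBP3, NOP7, RPF2, TIF6, NMD3 and ARX1. Other members named by timing or step (DRS1, NOP12, RRP1, BRX1 and the like) and further examples were chosen after their values were seen. Intervals cover counting error only. A deposited table of coverage ratios was not used.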

Additional observations from a re-analysis of the deposited data

Results flagged for a closer look

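The rise of the assembly factor genes in YPD differed between cells kept 1 h and 7 h in SPO. The interaction passed for 43 members at 20 min and for 39 at 5 min, each with the smaller response after 7 h. In the tag counts, without a test, 43 of 43 members lay on that side at 20 min (median -4.04) but 27 of 43 at 5 min (median -0.35). The 7 h level before transfer rests in part on a library of 132594 counts, and the part of depth in the difference was not tested.

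The direction of the difference from WT was not the same in Pre and Mei. The members' median was -1.77 in Pre and 0.90 in Mei in ccr4Δ/Δ, and -1.78 in Pre and 0.63 in Mei in pop2Δ/Δ. The Mei medians of all genes were 0.32 and 0.28, and in pop2Δ/Δ 26.5% of the members measured were past a log2 difference of 1, beside 27.3% of all genes. With 1 library a group this difference was not tested, and both mutants were compared with the same WT library at each stage. The stage markers given with these results also differed between mutants and WT.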

How the results depend on the processing

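The 43 decreases at 1 h in SPO and the 43 increases at 5 and 20 min after 1 h were found under each alternative run. DESeq2 called 7 members lower at 9 h against 0 h, 9 lower from 5 to 20 min after 7 h and 0 lower at 7 h against 1 h before transfer. With library sizes alone, 21 members rose from 5 to 20 min after 1 h. The same choice gave RNA medians of -0.193, -0.23 and 0.137 in ccr4Δ/Δ, pop2Δ/Δ and xrn1Δ/Δ Veg, -1.878 and 0.071 in ccr4Δ/Δ and xrn1Δ/Δ Pre, and 1.01, 0.78 and 1.793 in Mei. It gave -0.088 for WT Pre and -2.854 for WT Mei against Veg, -0.878 for the degron and 0.431 for pCup1-Ccr4, so xrn1Δ/Δ Veg and Pre and pCup1-Ccr4 changed sign. A prior count of 0.5 gave -3.628 and -2.82 for WT Mei against Veg and Pre, and no minimum of counts gave 1.493 for xrn1Δ/Δ Mei. A tag minimum of 10 gave 4 longer members at 5 min and 3 at 20 min after 1 h, and a minimum of 50 gave 1 at 5 min, 1 shorter at 20 min (7 h against 1 h) and 3.877 nt for WT Mei against Pre. With each library centred, 5 members were longer and 0 shorter at 20 min, and tail medians were -1.239, -0.758 and 0.392 nt in ccr4Δ/Δ, pop2Δ/Δ and xrn1Δ/Δ Veg, -6.306, -8.679 and -0.951 nt in Pre and -3.732 nt in xrn1Δ/Δ Mei. They were 4.311 nt for WT Pre against Veg, -2.321 nt for Mei against Pre, 3.023 nt for the degron, -1.279 nt for pCup1-Ccr4 and 0.369 nt for pCup1-Ccr4 at 0 min against its control. The causes were not tested.

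Leaving out 1 library gave 35 to 40 lower members at 5 h, 25 to 33 higher from 1 to 5 h, 3 to 7 higher and 7 to 12 lower at 9 h against 0 h, and 39 to 41 higher and 0 to 1 lower at 9 h against 1 h. In the return it gave 41 to 43 and 32 to 43 higher at 5 and 20 min after 7 h, 6 to 21 lower from 5 to 20 min, 24 to 37 higher and 0 to 1 lower before transfer, and 23 to 40 and 33 to 43 smaller responses at 5 and 20 min. Tail counts were 2 to 3 longer at 5 min, 4 to 13 shorter from 5 to 20 min, 13 to 25 shorter at 5 min and, at 20 min, 0 to 5 shorter and 0 to 1 longer. Against 1 h, TIF6 at 5 h was 0.016 with library sizes alone and -0.163 to 0.034 without 1 library, among them 0.005, and NMD3 was -0.115 to 0.531 without 1 library. Replicate numbers did not meet the rule for paired samples, since the correlations of deviations ran from -0.159 to 0.403 (RNA, time course), -0.073 to 0.084 (RNA, return), -0.136 to 0.347 (tails, time course) and -0.176 to 0.099 (tails, return). In the time course, replicate 2 had the longer median tail and more tags at 10 of 10 hours. The causes were not tested, and the replicate block gave 41 lower at 5 h, 38 higher before transfer and 18 shorter tails from 5 to 20 min, with no other count changed.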
